A study of Homo sapiens with 12 samples.

Results

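The vitamin D receptor gene VDR, 2 genes of its retinoid X receptor partners (RXRA and RXRB) and 6 genes of coregulators (NCOA1, NCOA2, NCOA3, MED1, NCOR1 and HR) were followed in HaCaT cells, which are immortalised human skin keratinocytes. These 9 genes were taken by symbol from the 16271 genes of the deposited count table, and all 9 passed the filter on low counts that left 14676 genes for testing. The RNA came from cells labelled as VDR knockout and treated with 1,25(OH)2D3, the hormone that activates VDR, for 8 h, untreated knockout cells, treated wild type cells and untreated wild type cells, with 3 libraries in each of the 4 groups. All groups were HaCaT cells grown in serum-containing medium, and the replicates were cultured on multiwell plates. The sources used here do not give the place or kind of the edit, the number of knockout clones, the hormone dose or the vehicle. A difference between genotypes and a difference between the cell lines or clones that carry them therefore cannot be told apart. The p-values set a difference between groups against the spread of these libraries within groups, and not against a spread between clones.

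VDR is a nuclear receptor that binds DNA mainly as a heterodimer with a retinoid X receptor, at direct repeats of a hexamer spaced by a few bases. Without hormone such receptors can hold corepressors such as NCOR1, which brings histone deacetylase to chromatin. Hormone binding lets the receptor bind coactivators of the NCOA (SRC) family and MED1, the Mediator subunit that contacts nuclear receptors. HR, the hairless protein, is a corepressor that binds VDR in skin. Both VDR and HR are known for their role in the hair follicle.

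Total counts per library were 11.83 to 12.77 M (1e6 counts) in treated knockout cells, 12.61 to 15.99 M in untreated knockout cells, 13.13 to 13.89 M in treated wild type cells and 11.49 to 12.21 M in untreated wild type cells. Levels are given as CPM, counts per 1e6 counts of the library scaled by TMM. The summed marker levels are the exception and are scaled by library size alone, so they are not on the scale of the single-gene means. TMM factors were below 1 in wild type and above 1 in knockout libraries. All 8 keratinocyte markers looked for were in the table, and their summed level was 1103 to 1273 CPM in treated knockout, 1349 to 1522 CPM in untreated knockout, 2240 to 2330 CPM in treated wild type and 2248 to 2534 CPM in untreated wild type libraries. Against the direction of these sums, DSG3 averaged 129.6 CPM in untreated knockout and 62.7 CPM in untreated wild type cells. KRT14 averaged 107.2 and 334.4 CPM in these groups. The differentiation marker KRT10 had 1 to 15 counts per library. Of 11 markers of other cell types, 4 were in the table (the endothelial marker CDH5, the macrophage marker CD68, COL1A1 and PMEL), with a summed level of 10.8 to 14.9, 13.7 to 16.3, 23.0 to 31.6 and 15.2 to 27.2 CPM in the same order of groups. The immune marker PTPRC and the endothelial marker PECAM1 were not among the genes of the table. CDH5 had 31 to 105 and CD68 45 to 194 counts per library. In treated and untreated wild type cells CDH5 averaged 7.81 and 4.44 CPM, and CD68 14.2 and 9.49 CPM. The part of these marker levels in the results below was not tested. Untreated wild type replicate 3 stood apart from the other libraries of its group, at -32.5 on the first principal component against -54.3 and -55.7. Several results that rest on it are also given without it.

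Promoter sequence is shown for the member with the largest genotype difference without hormone, RXRA, and for NCOA3 and MED1, the members that were higher in knockout cells under both treatments. The windows are 300 bases long, mostly upstream of an annotated RefSeq start on GRCh38.p14, each 5′ to 3′ on the gene's strand. They lie at chr9:134326205-134326504 (plus strand, the first of 2 RXRA entries), chr20:47501637-47501936 (plus strand, NCOA3) and chr17:39451214-39451513 (minus strand, MED1). The RXRA window lies inside the RXRA gene span given below, which begins further upstream at 134317098. Capitals mark GC boxes (GGGCGG) or CCAAT boxes (CCAAT) on either strand, and neighbouring matches can overlap.
RXRA: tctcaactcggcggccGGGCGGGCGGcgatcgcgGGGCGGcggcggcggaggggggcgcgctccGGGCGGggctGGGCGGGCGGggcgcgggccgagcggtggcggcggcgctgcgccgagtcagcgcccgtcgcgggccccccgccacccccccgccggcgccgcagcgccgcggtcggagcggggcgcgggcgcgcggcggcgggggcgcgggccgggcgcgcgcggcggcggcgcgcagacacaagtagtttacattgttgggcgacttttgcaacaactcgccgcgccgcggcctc
NCOA3: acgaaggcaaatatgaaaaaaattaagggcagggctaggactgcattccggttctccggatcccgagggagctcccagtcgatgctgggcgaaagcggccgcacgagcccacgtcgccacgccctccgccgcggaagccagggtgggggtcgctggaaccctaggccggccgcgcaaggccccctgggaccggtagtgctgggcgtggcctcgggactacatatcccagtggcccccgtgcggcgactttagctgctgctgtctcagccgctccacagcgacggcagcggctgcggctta
MED1: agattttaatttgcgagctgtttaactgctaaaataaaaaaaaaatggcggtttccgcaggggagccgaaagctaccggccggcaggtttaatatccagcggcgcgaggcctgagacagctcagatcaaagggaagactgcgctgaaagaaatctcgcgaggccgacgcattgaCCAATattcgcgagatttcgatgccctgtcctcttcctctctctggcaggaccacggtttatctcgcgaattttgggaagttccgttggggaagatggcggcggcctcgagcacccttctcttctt
The RXRA window had a GC content of 84% and 6 GC boxes, the NCOA3 window 66.7% with no match to any motif searched, and the MED1 window 52% with 1 CCAAT box. Of 35116 promoter windows of the same length, 45.0% held a GC box and 34.6% a CCAAT box. No window of VDR, NCOA2 or HR was examined as a member. The receptor half-sites AGGTCA and AGTTCA, present in 13.8% and 10.4% of the windows, were found on neither strand in the RefSeq windows searched for RXRA, RXRB, NCOA1, NCOA3, NCOR1 and MED1. The same held for repeats of either half-site with 3 bases between its copies, which were found in 2 windows for AGGTCA and in 0 for AGTTCA. A match is a description of letters in a window, and a missing match says nothing about binding.

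The hormone response of the 9 genes was compared first in wild type cells. HR rose, and VDR, RXRA and MED1 fell, while RXRB, NCOA1, NCOA2, NCOA3 and NCOR1 did not pass the test (edgeR quasi-likelihood test with Benjamini-Hochberg adjustment over all genes, adjusted p below 0.05). Of the 9 members, 1 was thus higher and 3 were lower, against 11.5% and 13% of all 14676 genes (24.5% in either direction). The median log2 fold change was -0.04 over the members and -0.01 over all genes. In knockout cells 0 members passed in either direction, against 0.913% of all genes higher and 1.64% lower (2.55% in either direction). Before adjustment 4 members, RXRB, NCOA1, MED1 and HR, had a p below 0.05. The share of all genes below this unadjusted threshold is not given, here or for the lists below, so such counts have nothing to be set against. With DESeq2 1 member, MED1, was higher (adjusted p = 0.0357).

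**Figure D1:**
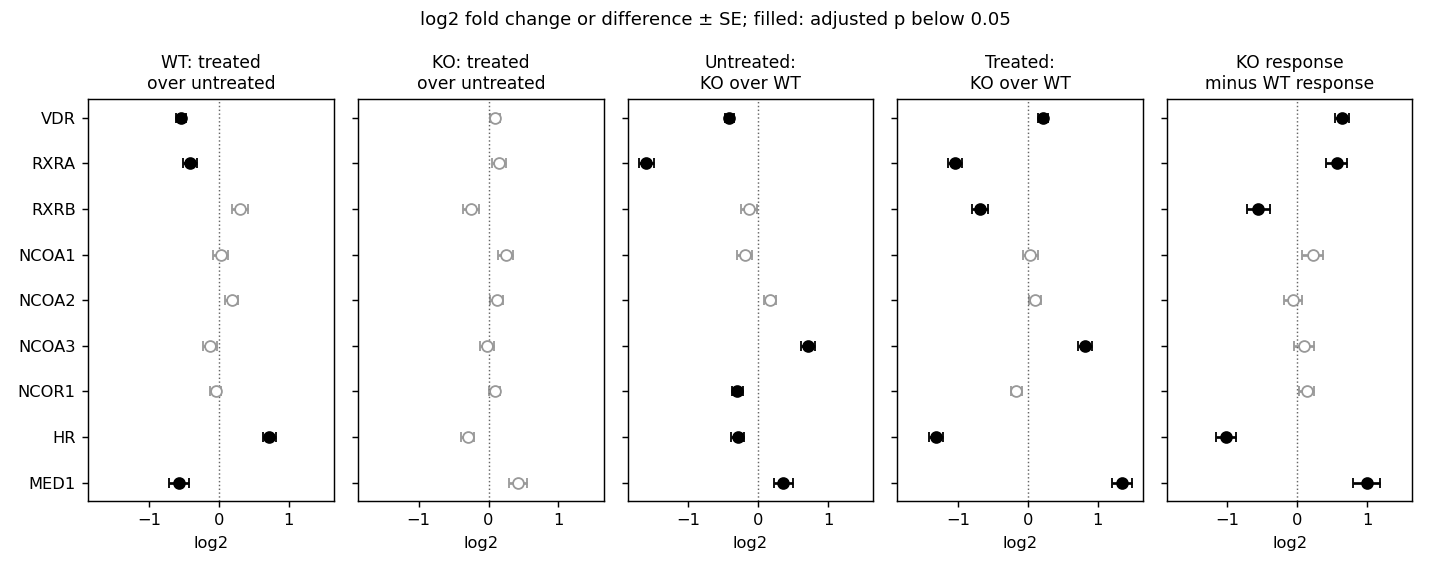
Log2 fold changes of the 9 genes with their standard errors in 4 comparisons and for the difference of responses (x axis, log2 scale; points are estimates from 3 libraries per group, filled where the adjusted p is below 0.05; bars are SE). HR stood at 0.72 with treatment in wild type cells and -0.30 in knockout cells, and RXRA at -1.60 and MED1 at 0.36 for knockout against wild type without hormone.

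Knockout and wild type cells were compared under each treatment. Without hormone, NCOA3 and MED1 were higher and VDR, RXRA, NCOR1 and HR were lower in knockout cells. This made 2 higher and 4 lower of 9, against 35.5% and 34.2% of all genes, and 69.7% of all genes passed in either direction. With hormone, VDR, NCOA3 and MED1 were higher and RXRA, RXRB and HR lower in knockout cells, 3 each way against 38.4% and 37.4% of all genes (75.9% in either direction). The shares of members called were near those of all genes. The median log2 fold change of the members was -0.19 without and 0.04 with hormone, against 0.01 and 0.02 over all genes.

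VDR, the targeted gene (ENSG00000111424, chromosome 12, 47841537 to 47943048, minus strand, GRCh38), had RNA in every knockout library. It stood at 81.7, 80.5 and 86.3 CPM in treated knockout cells and at 73.1, 81.1 and 78.7 CPM in untreated knockout cells. Treated wild type libraries had 74.6, 70.9 and 67.4 CPM, against 102.9, 107.3 and 99.7 CPM in untreated wild type libraries. The untreated wild type libraries were the highest and overlapped with no other group, while the range of the treated wild type libraries, the lowest on average, overlapped with that of the untreated knockout libraries. In wild type cells treatment lowered VDR to 0.687 of its untreated level (-0.54 ± 0.07 SE, adjusted p = 7.74e-05). In knockout cells its difference with treatment was 0.09 ± 0.07 (adjusted p = 0.452), with a 95% interval of -0.05 to 0.24. Knockout cells had less VDR RNA than wild type cells without hormone (-0.41 ± 0.07, adjusted p = 5.03e-05) and more with hormone (0.22 ± 0.07, adjusted p = 0.00796). The call with hormone was lost without treated wild type replicate 3 (0.17, adjusted p = 0.0707). Counts over the whole gene do not show the protein, and with the edited place not given they do not check the knockout. In bulk RNA, fewer cells of a type and less RNA per cell cannot be told apart, here and for every gene below.

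CYP24A1, the enzyme that degrades the hormone and a textbook VDR target, is given beside these levels. It stood at 12.1, 12.5 and 12.04 CPM in treated knockout cells and at 21.0, 11.6 and 18.0 CPM in untreated knockout cells. In treated wild type cells it reached 1705, 1718 and 1606 CPM, against 51.3, 46.3 and 46.4 CPM in untreated wild type cells. The treated and untreated knockout libraries overlapped, and both lay below every wild type library.

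RXRA, the retinoid X receptor alpha (ENSG00000186350, chromosome 9, 134317098 to 134440585, plus strand), had the largest genotype difference of the members without hormone. Its values were 106.6, 92.7 and 81.1 CPM in treated knockout cells and 76.7, 79.5 and 96.5 CPM in untreated knockout cells. Wild type cells had 207.1, 197.6 and 172.8 CPM when treated and 268.9, 254.3 and 245.1 CPM untreated. All knockout libraries lay below all wild type libraries, and within wild type the treated libraries lay below the untreated ones. In untreated cells RXRA was at 0.329 of the wild type level (log2 fold change -1.60 ± 0.11, adjusted p = 1.50e-09), a size of change larger than that of 93.1% of genes in this comparison. With hormone the level was 0.486 of wild type (-1.04 ± 0.11, adjusted p = 1.26e-07). Treatment lowered RXRA to 0.752 of its untreated level in wild type cells (-0.41 ± 0.10, adjusted p = 0.00861), a call lost without treated wild type replicate 3 (-0.33, adjusted p = 0.0598). The difference with treatment in knockout cells was 0.15 ± 0.11 (adjusted p = 0.433).

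RXRB, the retinoid X receptor beta (ENSG00000204231, chromosome 6, 33193588 to 33200688, minus strand), was counted at a lower level. It had 16.2, 13.6 and 14.6 CPM in treated knockout cells and 19.1, 15.99 and 17.8 CPM in untreated knockout cells. Wild type cells had 23.3, 24.1 and 24.2 CPM when treated and 21.7, 20.2 and 15.97 CPM untreated. The treated wild type libraries lay above all others. With hormone RXRB was at 0.621 of the wild type level in knockout cells (-0.69 ± 0.12, adjusted p = 4.52e-05). Without hormone the difference was -0.13 ± 0.12 (adjusted p = 0.33), and without untreated wild type replicate 3, the lowest of its group, it was -0.25 (adjusted p = 0.0375). Treatment gave 0.31 ± 0.12 in wild type cells (adjusted p = 0.0636) and -0.25 ± 0.12 in knockout cells (adjusted p = 0.229). The wild type difference passed without untreated wild type replicate 1 (0.41, adjusted p = 0.0272). Without untreated wild type replicate 3 it was 0.19 and did not pass (adjusted p = 0.208). RXRB shares 244 exonic bases, 6.22% of its exons, with the opposite-strand gene SLC39A7, and the sources used here do not say whether counting used strand.

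**Figure D2:**
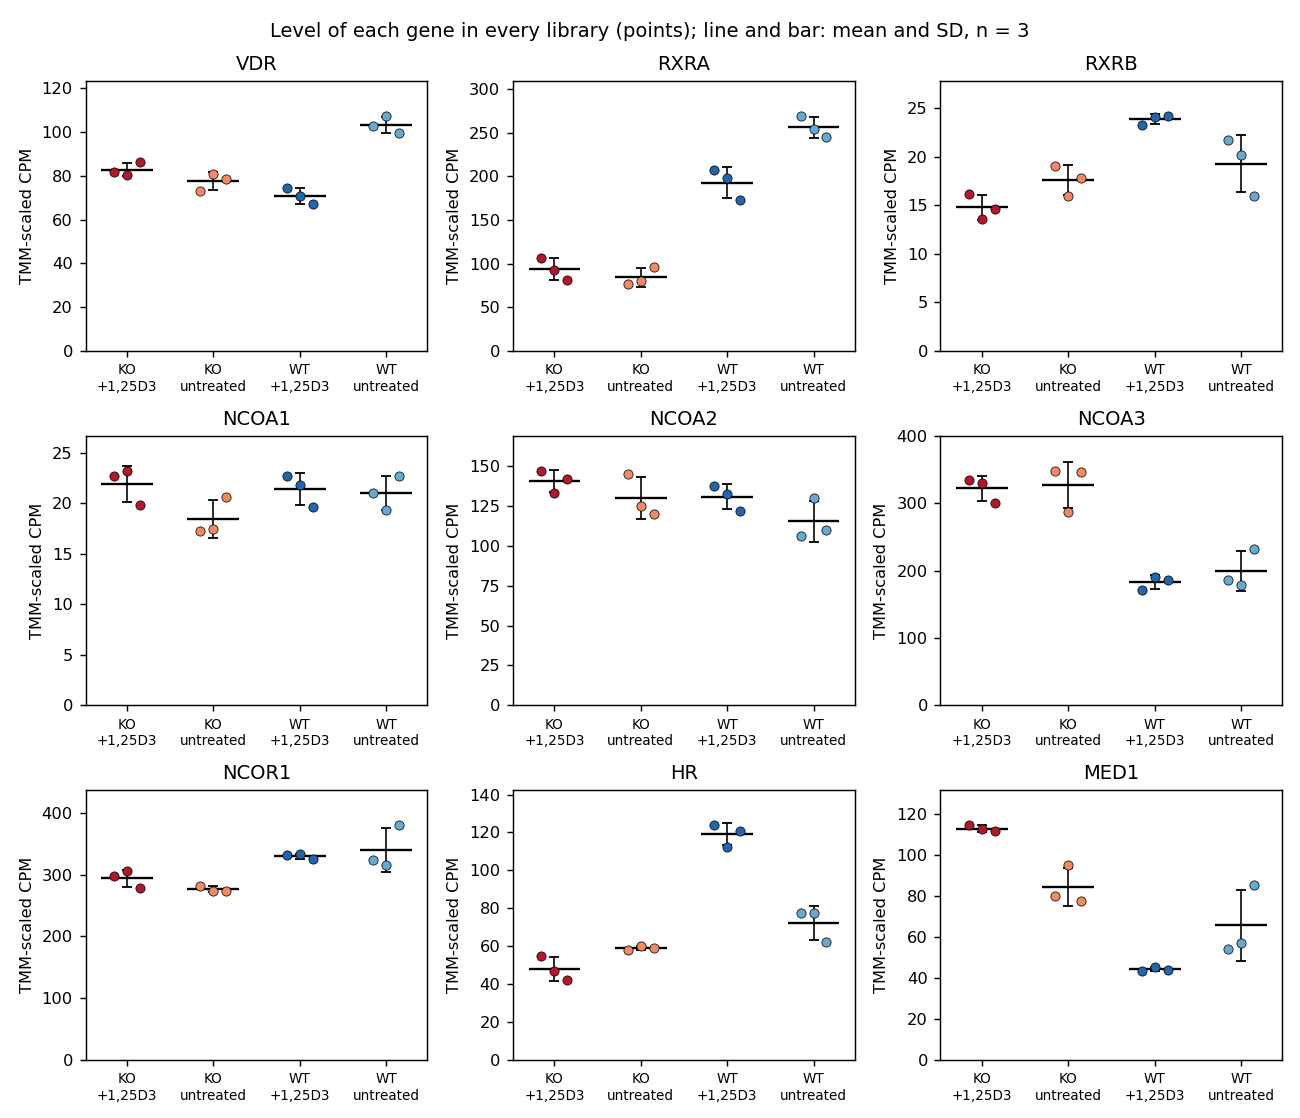
TMM-scaled CPM of each of the 9 genes in the 12 libraries (y axis, CPM; x axis, the 4 groups; points are libraries and bars the group mean with SD). RXRA lies between 76.7 and 106.6 CPM in all knockout libraries and between 172.8 and 268.9 CPM in all wild type libraries.

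Of the 3 SRC family coactivators, NCOA3 passed the test between the genotypes under both treatments, and NCOA1 and NCOA2 passed under neither; the genes were not tested against each other. NCOA3 (ENSG00000124151, chromosome 20, 47501902 to 47656877, plus strand), the member called SRC-3, had 335.1, 331.0 and 300.7 CPM in treated knockout cells and 348.7, 287.6 and 346.1 CPM in untreated knockout cells. Treated wild type libraries had 172.1, 190.7 and 186.6 CPM, against 186.5, 179.2 and 232.9 CPM in untreated wild type libraries. Every knockout library was above every wild type library, and treated and untreated libraries overlapped within each genotype. NCOA3 was 1.64-fold higher in knockout cells without hormone (log2 fold change 0.72 ± 0.10, adjusted p = 7.58e-06) and 1.76-fold higher with hormone (0.82 ± 0.10, adjusted p = 1.24e-06). Treatment gave -0.12 ± 0.10 in wild type cells (adjusted p = 0.397) and -0.02 ± 0.10 in knockout cells (adjusted p = 0.916), with 95% intervals of -0.34 to 0.09 and -0.23 to 0.19. The highest untreated wild type value was again replicate 3, and the wild type value without it was 0.01.

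NCOA2, the coactivator SRC-2 (ENSG00000140396, chromosome 8, 70109762 to 70403805, minus strand), had 147.1, 133.4 and 141.9 CPM in treated knockout cells and 145.2, 125.2 and 119.7 CPM in untreated knockout cells. Wild type libraries had 137.7, 132.6 and 122.1 CPM when treated and 106.1, 129.9 and 110.2 CPM untreated. The groups overlapped in all 4 direct comparisons. For treatment in wild type cells the difference was 0.18 ± 0.09 (adjusted p = 0.156), which passed without untreated wild type replicate 2 (adjusted p = 0.0329). For genotype it was 0.17 ± 0.09 without hormone (adjusted p = 0.0977) and 0.11 ± 0.09 with hormone (adjusted p = 0.289, 95% interval -0.08 to 0.30). The untreated genotype difference passed without untreated wild type replicate 2 (adjusted p = 0.0156) or untreated knockout replicate 3 (adjusted p = 0.0477). Scaled by library size alone, which moves the median of all genes by 0.13 in both genotype comparisons, it passed as well (0.30, adjusted p = 0.00784), as did the difference with hormone (0.21, adjusted p = 0.0397). With limma on log2 of the deposited CPM both passed too (0.29, adjusted p = 0.00753, and 0.21, adjusted p = 0.039). Those CPM are likewise scaled by library size alone, so this is not a separate check of the scaling.

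NCOA1, the coactivator SRC-1 (ENSG00000084676, chromosome 2, 24491914 to 24770702, plus strand), had 22.7, 23.2 and 19.9 CPM in treated knockout cells and 17.3, 17.4 and 20.7 CPM in untreated knockout cells. Wild type libraries had 22.7, 21.85 and 19.7 CPM when treated and 21.04, 19.4 and 22.7 CPM untreated. The groups overlapped throughout, and NCOA1 passed the test in no comparison. Its 95% intervals on the log2 scale were -0.20 to 0.25 for treatment in wild type cells and -0.19 to 0.26 for genotype with hormone. For genotype without hormone the difference was -0.19 ± 0.11 (adjusted p = 0.124), and it passed without untreated knockout replicate 3 (-0.28, adjusted p = 0.0442). Treatment in knockout cells gave 0.25 ± 0.11 (adjusted p = 0.19, unadjusted p = 0.0323).

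MED1 (ENSG00000125686, chromosome 17, 39404285 to 39451286, minus strand), the Mediator subunit that binds liganded VDR, had opposite differences with treatment in the 2 genotypes. It stood at 114.7, 112.6 and 111.7 CPM in treated knockout cells and at 80.2, 95.1 and 77.8 CPM in untreated knockout cells. Treated wild type cells had 43.5, 45.5 and 43.9 CPM, against 54.2, 57.3 and 85.6 CPM in untreated wild type cells. Treated and untreated libraries did not overlap in either genotype, and untreated wild type replicate 3 lay within the range of the untreated knockout libraries. MED1 fell to 0.674 of its untreated level in wild type cells (-0.57 ± 0.14 on the log2 scale, adjusted p = 0.00934). Without untreated wild type replicate 3 the fall was -0.33 (adjusted p = 0.00628). In knockout cells the difference was 0.42 ± 0.13 and did not pass (adjusted p = 0.0957). A fit on the knockout libraries alone called it higher (adjusted p = 0.00234). With hormone MED1 was 2.55-fold higher in knockout than in wild type cells (1.35 ± 0.14, adjusted p = 6.11e-07).

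Without hormone the MED1 difference was 0.36 ± 0.14 (1.28-fold, adjusted p = 0.0291), with overlapping libraries. This call was lost without untreated wild type replicate 1 (adjusted p = 0.114), untreated wild type replicate 2 (adjusted p = 0.117) or untreated knockout replicate 2 (adjusted p = 0.121). Without untreated wild type replicate 3 it was 0.59 (adjusted p = 1.2e-06).

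NCOR1, a corepressor of unliganded nuclear receptors (ENSG00000141027, chromosome 17, 16029157 to 16218185, minus strand), had small differences. It had 298.1, 306.2 and 278.8 CPM in treated knockout cells and 281.6, 273.9 and 274.35 CPM in untreated knockout cells. Wild type libraries had 331.7, 332.9 and 325.1 CPM when treated and 324.04, 315.4 and 380.5 CPM untreated. All knockout libraries lay below all wild type libraries, and within each genotype treated and untreated libraries overlapped. Without hormone NCOR1 was at 0.814 of the wild type level (-0.30 ± 0.08, adjusted p = 0.00254), a call lost when scaled by library size alone (adjusted p = 0.0622). Without untreated wild type replicate 3, the highest of its group, this difference was -0.21 (adjusted p = 0.00361). With hormone the difference was -0.16 ± 0.08 (adjusted p = 0.0625), which DESeq2 called (adjusted p = 0.0319). Treatment in wild type cells gave -0.04 ± 0.08 (adjusted p = 0.717, 95% interval -0.21 to 0.12), and 0.05 without untreated wild type replicate 3. Treatment in knockout cells gave 0.09 ± 0.08 (adjusted p = 0.529). Of the NCOR1 exons, 2.08% overlap PIGL and 1.22% overlap AC002553.1 on the opposite strand.

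HR, the hairless corepressor (ENSG00000168453, chromosome 8, 22114415 to 22133384, minus strand), was the member that rose with treatment in wild type cells. It had 54.5, 46.7 and 42.1 CPM in treated knockout cells and 57.8, 59.99 and 58.85 CPM in untreated knockout cells. Treated wild type cells had 123.9, 112.5 and 120.98 CPM, against 77.3, 77.4 and 62.1 CPM in untreated wild type cells. The treated wild type libraries were the highest and the treated knockout libraries the lowest, with no overlap between any pair of groups compared. HR rose 1.65-fold with treatment in wild type cells (0.72 ± 0.10 on the log2 scale, adjusted p = 0.000103), a size of change larger than that of 95.3% of genes. Without untreated wild type replicate 3, the lowest of its group, the rise was 0.63. In knockout cells the difference was -0.30 ± 0.10 and did not pass (adjusted p = 0.097), while a fit on the knockout libraries alone called it lower (adjusted p = 0.0281).

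With hormone HR was at 0.401 of the wild type level in knockout cells (-1.32 ± 0.10, adjusted p = 2.65e-09). Without hormone it was at 0.815 (-0.30 ± 0.10, adjusted p = 0.0121). The untreated call was lost without untreated wild type replicate 1 (adjusted p = 0.0586) or replicate 2 (adjusted p = 0.0534), and when scaled by library size alone (adjusted p = 0.119). Without untreated wild type replicate 3 the untreated difference was -0.40 (adjusted p = 0.000182).

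Among the members, 5 had no overlap between treated and untreated wild type libraries (2 higher and 3 lower), against 19.9% of all genes higher and 19.4% lower. In knockout cells 2 members did not overlap, MED1 higher and HR lower, against 15.7% and 15.9%. Knockout and wild type libraries did not overlap for 5 members without hormone, NCOA3 higher and VDR, RXRA, NCOR1 and HR lower. Of all genes 35.7% were higher and 33.5% lower without overlap. With hormone 7 members did not overlap, VDR, NCOA3 and MED1 higher and RXRA, RXRB, NCOR1 and HR lower, against 41.1% and 39.8%.

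Whether treatment had a different effect in the 2 genotypes was tested as the difference of the log2 fold changes, knockout minus wild type. It was higher for VDR (0.64 ± 0.10, adjusted p = 0.000371), RXRA (0.56 ± 0.15, adjusted p = 0.0108) and MED1 (0.99 ± 0.19, adjusted p = 0.00237). It was lower for RXRB (-0.56 ± 0.17, adjusted p = 0.02) and HR (-1.02 ± 0.14, adjusted p = 0.000148). These were 3 higher and 2 lower of 9, against 13.8% and 12.5% of all genes (26.3% in either direction). The differences of MED1 and HR were larger in size than those of 95.4% and 95.7% of genes. Without untreated wild type replicate 3 the MED1 difference was 0.74 (adjusted p = 3.73e-05). The RXRB call was lost without untreated knockout replicate 1 (adjusted p = 0.0607) or treated knockout replicate 2 (adjusted p = 0.061). NCOA1 (0.22 ± 0.15, adjusted p = 0.292), NCOA2 (-0.07 ± 0.13, adjusted p = 0.739), NCOA3 (0.10 ± 0.14, adjusted p = 0.637) and NCOR1 (0.13 ± 0.11, adjusted p = 0.393) did not pass. The 95% interval for NCOA3 ran from -0.20 to 0.40.

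Levels of different genes were compared per length, as CPM per kb of exonic sequence. In treated knockout cells the order was NCOA3 at 38.4, NCOR1 at 19.1, MED1 at 15.4, VDR at 14.6, NCOA2 at 14.0, RXRA at 8.43, HR at 5.44, RXRB at 3.78 and NCOA1 at 2.54 CPM per kb. There the ranges of VDR and NCOA2 overlapped, and those of MED1 and VDR did not. Untreated knockout cells kept NCOA3 (39.0 CPM per kb) and NCOR1 (17.96) first, followed by VDR (13.7), NCOA2 (12.97) and MED1 (11.5), with neighbouring ranges overlapping among these 3. In treated wild type cells NCOA3 (21.8 CPM per kb) and NCOR1 (21.4) overlapped, followed by RXRA (17.4), then HR (13.6), NCOA2 (13.04) and VDR (12.5), whose neighbouring ranges overlapped. In untreated wild type cells NCOA3 (23.7 CPM per kb), RXRA (23.1) and NCOR1 (22.1) overlapped as neighbours, VDR followed at 18.2, and then NCOA2 at 11.5, MED1 at 8.97 and HR at 8.23, whose neighbouring ranges overlapped. NCOA1 was last in all 4 groups, at 2.14 to 2.54 CPM per kb. RXRA was in place 6 in both knockout groups, in place 3 in treated and in place 2 in untreated wild type cells. MED1 was in place 3 in treated and 5 in untreated knockout cells, and in place 8 in treated wild type cells, where its range overlapped that of RXRB, and 6 in untreated wild type cells.

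Ratios within a library describe the balance between members, with no test of their own. The ratio of RXRA to VDR per kb was 0.668, 0.589 and 0.481 in treated knockout cells and 0.537, 0.502 and 0.628 in untreated knockout cells. It was 1.42, 1.43 and 1.31 in treated wild type cells and 1.34, 1.21 and 1.26 in untreated wild type cells. All knockout libraries had more VDR than RXRA RNA per kb, and all wild type libraries more RXRA than VDR. The exonic lengths used were 11.08 kb for RXRA and 5.67 kb for VDR. Before division by length, RXRA averaged 93.5 and VDR 82.8 CPM in treated knockout cells, and 84.2 and 77.6 CPM in untreated knockout cells. Which gene has more RNA in knockout cells thus rests on these lengths, while the separation of the genotypes does not. The ratio of NCOA3 to NCOR1 was 2.06, 1.98 and 1.98 in treated knockout cells and 2.27, 1.93 and 2.31 in untreated knockout cells. In wild type cells it was 0.951, 1.05 and 1.05 when treated and 1.06, 1.04 and 1.12 untreated, so that the genotypes did not overlap.

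RXRA made up 69.0% ± 2.32 of the summed RXRA and RXRB level in treated knockout cells, 62.7% ± 3.63 in untreated knockout cells, 73.97% ± 2.15 in treated wild type cells and 82.5% ± 1.68 in untreated wild type cells (SD, n = 3). NCOA3 made up 69.8% ± 1.31 and 72.0% ± 2.01 of the summed NCOA1 to NCOA3 level in treated and untreated knockout cells, against 58.4% ± 2.55 and 62.8% ± 4.34 in treated and untreated wild type cells. Their summed level was 54.9 ± 2.51 and 54.1 ± 4.79 CPM per kb in treated and untreated knockout cells, and 37.3 ± 0.984 and 37.7 ± 3.23 CPM per kb in treated and untreated wild type cells.

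**Figure D3:**
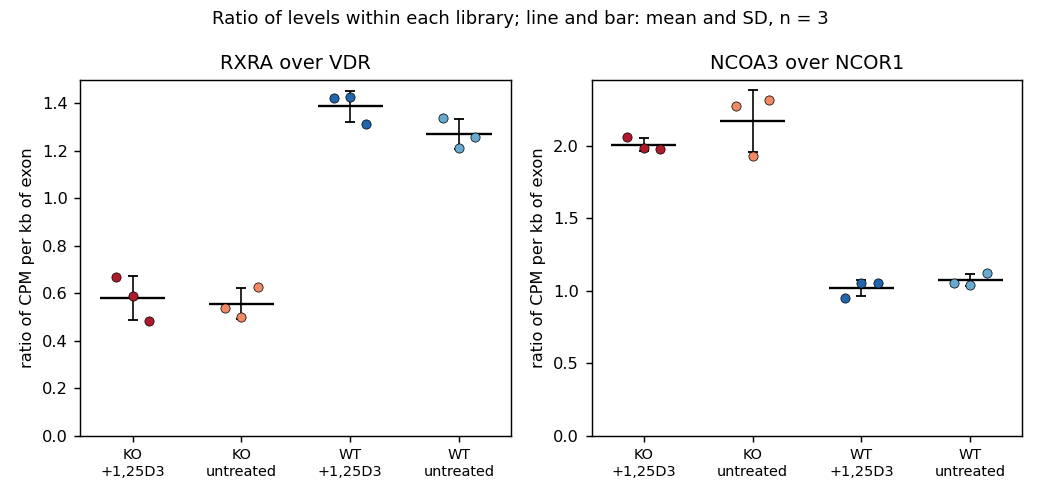
Ratios of RXRA to VDR and of NCOA3 to NCOR1, both per kb of exonic sequence, in each library by group (y axis, ratio; x axis, the 4 groups; points are libraries, lines and bars the group mean and SD). RXRA to VDR lies between 0.481 and 0.668 in knockout and between 1.21 and 1.43 in wild type libraries.

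Other genes of the same machinery were counted from lists of RXR partners, coactivators, corepressors and Mediator subunits. Of 12 tested RXR partner receptors, 5 were higher and 5 lower in untreated knockout than in untreated wild type cells, and 3 higher and 4 lower with hormone. Over all genes 35.5% were higher and 34.2% lower without hormone (69.7% in either direction), and 38.4% and 37.4% with hormone (75.9% in either direction), so counts near these shares say nothing particular of a list. The retinoic acid receptor gene RARA averaged 20.3 CPM in untreated knockout cells and 44.3 CPM in untreated wild type cells (-1.12 ± 0.08 on the log2 scale, adjusted p = 2.91e-09). The liver X receptor gene NR1H2 averaged 32.6 and 58.9 CPM in the same groups (-0.85 ± 0.08, adjusted p = 3.98e-08), and PPARG 70.6 and 120.02 CPM (-0.77 ± 0.08, adjusted p = 1.74e-07). RARB had 48 to 75 counts per knockout library and 0 to 8 counts per wild type library. With treatment in wild type cells PPARG fell (-0.35 ± 0.08, adjusted p = 0.00373). It was the 1 partner called, against 11.5% of all genes higher and 13% lower (24.5% in either direction). Without untreated wild type replicate 3, 1 partner was also higher. In knockout cells 0 partners passed with treatment in edgeR, against 2.55% of all genes in either direction. There 4 partners were below 0.05 before adjustment, and 1 was higher by DESeq2. PPARG also differed in its response (0.59 ± 0.11, adjusted p = 0.00115).

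Of 19 other coactivators and acetyltransferases tested, 5 were higher and 8 lower in untreated knockout cells, and 6 higher and 10 lower with hormone, against 69.7% and 75.9% of all genes called in either direction. SMARCA4, the ATPase of a chromatin remodelling complex, averaged 102.1 CPM in untreated knockout cells and 286.6 CPM in untreated wild type cells (-1.49 ± 0.08, adjusted p = 7.48e-11). PPARGC1B averaged 53.4 and 104.4 CPM (-0.97 ± 0.08, adjusted p = 7.70e-09). NCOA7 was higher, at 321.9 and 123.2 CPM (1.39 ± 0.10, adjusted p = 5.58e-09). With treatment in wild type cells 4 rose and 2 fell, against 11.5% and 13% of all genes, and among those that rose were the acetyltransferase genes KAT2A (83.5 against 53.8 CPM, 0.64 ± 0.08, adjusted p = 9.28e-05) and EP300 (0.46 ± 0.07, adjusted p = 0.000347) and the cofactor TRIM24 (0.48 ± 0.09, adjusted p = 0.00114). The count of those that fell was 1 without untreated or treated wild type replicate 1. In knockout cells DDX17 fell (-0.35 ± 0.07, adjusted p = 0.0226), the 1 gene of this list called, against 2.55% of all genes in either direction. This call was lost without untreated knockout replicate 1, treated knockout replicate 2 or treated knockout replicate 3, while DESeq2 called 3 lower. Responses differed for KAT2A (-0.96 ± 0.12, adjusted p = 8.93e-05), DDX17 (-0.62 ± 0.10, adjusted p = 0.000603) and SNW1 (0.51 ± 0.11, adjusted p = 0.00287).

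**Figure D4:**
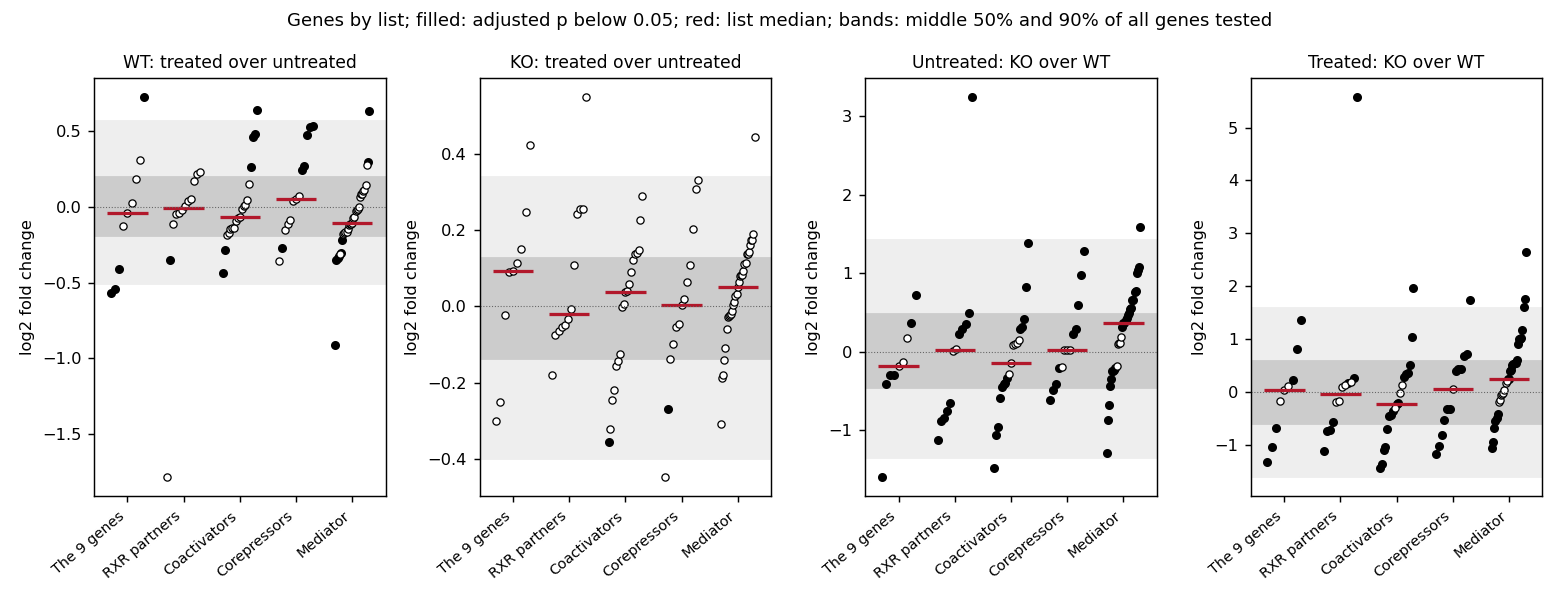
Log2 fold changes of the genes of each list in 4 comparisons, beside the 9 members (y axis, log2 fold change; points are genes, filled where the adjusted p is below 0.05; red lines are list medians, bands the middle 50% and 90% of all genes). The median of the other Mediator subunits is 0.36 for knockout against wild type without hormone, against 0.01 over all genes.

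Of 13 corepressor genes tested, 5 were higher and 4 lower in untreated knockout cells, and 6 each way with hormone, against the same 69.7% and 75.9% of all genes in either direction. TBL1XR1, a subunit of the NCOR complexes, averaged 186.2 CPM in untreated knockout cells and 76.8 CPM in untreated wild type cells (1.28 ± 0.10, adjusted p = 9.35e-09). The cofactor gene NRIP1 averaged 152.9 and 77.7 CPM in these groups (0.98 ± 0.12, adjusted p = 3.82e-06). With treatment in wild type cells 5 rose and 1 fell, against 11.5% and 13% of all genes, and NRIP1 (0.53 ± 0.12, adjusted p = 0.00556) and NR2F6 (0.47 ± 0.11, adjusted p = 0.00455) were among those that rose. The count that fell was 0 without untreated wild type replicate 2 or treated wild type replicate 2 or 3. The count of rises was 2 to 4 when single wild type libraries were left out, and lowest without untreated replicate 1 or 3 or treated replicate 2 or 3. HDAC2 fell in knockout cells (-0.27 ± 0.07, adjusted p = 0.0497), the 1 gene of this list called, against 2.55% of all genes in either direction. This call was lost without any one of the 6 knockout libraries. The response differed for 2 genes upward and 5 downward, against 13.8% and 12.5% of all genes, with counts of 0 to 2 and 2 to 5 when single libraries were left out.

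All 31 other Mediator subunit genes were tested. Without hormone 17 were higher and 9 lower in knockout cells, against 35.5% and 34.2% of all genes, with a median log2 fold change of 0.36 against 0.01 over all genes. With hormone 17 were higher and 6 lower, against 38.4% and 37.4% of all genes, with a median of 0.24 against 0.02. MED16 averaged 47.5 CPM in untreated knockout cells and 116.5 CPM in untreated wild type cells (-1.29 ± 0.07, adjusted p = 2.68e-10), and MED15 averaged 318.8 and 511.6 CPM (-0.68 ± 0.06, adjusted p = 6.47e-08). MED31 averaged 113.1 CPM in treated knockout cells and 37.2 CPM in treated wild type cells (1.60 ± 0.11, adjusted p = 2.03e-09), and MED21 averaged 82.9 and 36.6 CPM (1.18 ± 0.09, adjusted p = 4.09e-09).

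With treatment in wild type cells 2 Mediator subunits rose and 6 fell, against 11.5% and 13% of all genes. MED27 averaged 22.6 CPM in treated and 42.5 CPM in untreated wild type cells (-0.91 ± 0.17, adjusted p = 0.00216), and the kinase gene CDK19 averaged 81.9 and 52.8 CPM (0.63 ± 0.13, adjusted p = 0.00315). The count that fell was 2 or 3 without untreated wild type replicate 1, untreated wild type replicate 3 or any treated wild type library, and the count that rose was 1 without treated wild type replicate 1 or 3. In knockout cells 0 subunits passed with treatment in edgeR, against 2.55% of all genes in either direction. There 2 subunits were below 0.05 before adjustment, and 1 was higher by DESeq2. The response differed for 7 subunits upward, the direction of MED1, and 1 downward, against 13.8% and 12.5% of all genes. These counts were 3 to 8 and 0 to 2 when single libraries were left out. Among those upward were MED27 (1.05 ± 0.22, adjusted p = 0.00479) and MED6 (0.75 ± 0.20, adjusted p = 0.0158).

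The authors' deposited tables of enriched gene ontology terms name the genes behind each term. They also hold terms with an adjusted p above 0.05, and the term counts of VDR and RXRA below include some of these. In the authors' deposited table for genes lower in untreated knockout than in untreated wild type cells, VDR stood in 13 and RXRA in 11 of 212 terms, among them receptor complex (78 of 3548 listed genes, adjusted p = 0.00119). In the authors' deposited table for genes lower with treatment in wild type cells, VDR stood in 6, RXRA in 5 and MED1 in 4 of 74 terms. These included tissue morphogenesis in the authors' deposited table, with all 3 of these genes (53 of 840 listed genes, adjusted p = 0.045). In the authors' deposited table for genes lower in treated knockout cells, NCOR1 and HR stood together in transcription corepressor activity (91 of 4456 listed genes, adjusted p = 0.0511). MED1 stood in 3 of 59 terms of the authors' deposited table for genes higher in treated knockout cells, among them protein-DNA complex (74 of 4054 listed genes, adjusted p = 2.21e-05).

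The genes whose pattern over the 12 libraries was most like that of VDR and of HR were named by the root mean square difference of log2 CPM, each gene centred on its mean, among 11234 genes with a mean of at least 10 CPM. For VDR, whose own standard deviation was 0.207, these included the ribosomal protein gene RPS12 (0.045), the translation factor gene EIF3I (0.0743) and GATA3 (0.0758), a transcription factor. RPS12 averaged 283.7 CPM in treated knockout, 273.6 CPM in untreated knockout, 254.7 CPM in treated wild type and 352.6 CPM in untreated wild type cells. For HR, with a standard deviation of 0.502, they were RP11-611D20.2 (0.0885), the matrix protein gene FBLN1 (0.0894), the kallikrein protease gene KLK5 (0.0934), ANO8 (0.11) and DFNB31 (0.112). KLK5 averaged 46.4 CPM in treated knockout, 55.4 CPM in untreated knockout, 119.2 CPM in treated wild type and 74.3 CPM in untreated wild type cells. All these patterns share the libraries and their depths, and these likenesses are a description.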

How the data were processed

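Total RNA of 12 HaCaT libraries was grouped by the labels. The authors deposited raw read counts by gene, and a second table of CPM that equals each count divided by its library total to within 0.005. The authors' deposited enrichment tables give, per the file headers, a p-value for each term and other values such as the number of listed genes. Per the submitters' processing notes, BWA 0.5.9 was used with mm9, a mouse build, although all gene IDs are human. The sources used here thus do not settle the build and annotation, and give no counting tool.

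The deposited counts were fitted with edgeR 4.0.16 in R 4.3.3 (filterByExpr, TMM factors 0.95 to 1.057, common dispersion 0.0117, all 12 libraries in a robust quasi-likelihood fit), with Benjamini-Hochberg adjustment over 14676 genes, a threshold of 0.05 and no minimum fold. A standard error (SE) is the size of the log2 fold change over the square root of F, and its 95% interval uses the degrees of freedom of the fit. The procedure was tested on simulated data. With 11.49 to 15.99 M (1e6) counts per library, the spread between 3 libraries sets the precision. CPM per kb used the union of exons in GENCODE v29 on GRCh38, which gives the gene positions. In the table, 909 genes had counts equal to another gene in every library. Motifs were searched in RefSeq promoter windows of GRCh38.p14, and windows of 6 of the 9 members were used. Windows on chromosome 8, where NCOA2 and HR lie, were left out of the member search, and no VDR window was used.

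Members and lists were chosen with earlier results of these data known. The members, CYP24A1, up to 3 genes per list and comparison with the smallest adjusted p, and the 5 genes most like VDR or HR were open to naming, and some genes that meet this rule are not reported here. The lists held 16 RXR partners (12 tested), 20 coactivators (19 tested), 16 corepressors (13 tested), 31 Mediator subunits, and markers. For MED26 and GPS2, which had 2 IDs each, the ID paired with the symbol in the reference names was used. Alternatives were other scalings and filters, DESeq2 1.42.0, limma 3.58.1 on log2 of deposited CPM with a pseudocount of 1, a fit of the compared groups only, a block for the replicate number, an adjusted p below 0.01, and each library left out.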

Additional observations from a re-analysis of the deposited data

Results flagged for a closer look

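The response to treatment differed between knockout and wild type cells for 5 of the 9 genes by the test of the difference itself (edgeR quasi-likelihood, adjusted over all genes), against 26.3% of all genes. The difference of log2 fold changes, knockout minus wild type, was 0.64 for VDR (adjusted p = 0.000371), 0.56 for RXRA (adjusted p = 0.0108) and 0.99 for MED1 (adjusted p = 0.00237). It was -0.56 for RXRB (adjusted p = 0.02), a call lost without untreated knockout replicate 1 (adjusted p = 0.0607) or treated knockout replicate 2 (adjusted p = 0.061), and -1.02 for HR (adjusted p = 0.000148). All 3 treated knockout libraries were above all 3 untreated knockout libraries for MED1 and below them for HR, and the treated wild type libraries lay on the opposite side of the untreated ones in both cases.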

How the results depend on the processing

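Outside the settings that left out a library, 376 of the member values kept their direction and side of the threshold, 11 passed only under the alternative and 9 no longer passed. Among the settings that left out 1 library, 298 did so, 6 newly passed, 9 no longer passed and 11 changed sign. The cause was not tested. With limma on log2 CPM, 2 members rose with treatment in wild type cells. In knockout cells the fit on the compared groups alone called 1 member higher and 1 lower with treatment, and DESeq2 called 1 higher. For knockout against wild type without hormone, 1 member was higher with an adjusted p below 0.01 and 1 with the compared groups alone, and 2 were lower with library size alone and 2 with limma. For the difference of responses 1 was lower with an adjusted p below 0.01.

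With each library left out in turn, members called with treatment in wild type cells were 1 to 2 higher and 2 to 3 lower, and in knockout cells 0 in either direction. For genotype they were 1 to 3 higher and 3 to 5 lower without hormone, and 2 to 3 higher and 3 lower with hormone. For the difference of responses they were 3 higher and 1 to 2 lower. Values that changed sign were all uncalled. With treatment in wild type cells these were NCOA1 (-0.032 to 0.092), NCOA3 (-0.195 to 0.008) and NCOR1 (-0.094 to 0.051), and in knockout cells NCOA3 (-0.109 to 0.024). The others were NCOA1 for genotype with hormone (-0.04 to 0.10) and, for the difference of responses, NCOA2 (-0.16 to 0.02) and NCOA3 (-0.038 to 0.171).

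Deviations from the group means of same-numbered libraries correlated at -0.175 to 0.121, which gave no sign of pairing by number. A shared plate or batch was not tested. With the replicate number as a block, 1 member was higher and 3 were lower with treatment in wild type cells, as without it, and the member counts of the other comparisons were also equal. Over all genes the block left 37 higher and 106 lower with treatment in knockout cells, against 134 and 240 without it. Library size alone gave 98 and 392 there, and for untreated genotype 6224 and 4085 against 5207 and 5019. List counts with libraries left out and under DESeq2 were added after seeing the data. At 13.6 to 24.2 CPM RXRB rests on the fewest counts per library together with NCOA1.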
